A study of Mus musculus with 8 samples.

Results

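The immediate early genes described here are Fos, Fosb, Jun, Junb, Jund, Egr1, Atf3, Ier2, Ier3 and Dusp1 in sorted mouse endothelial cells. They were chosen by symbol and make up 10 of the 30406 gene identifiers that all 8 single-cell libraries share. Each symbol belonged to 1 identifier in every library: Fos is ENSMUSG00000021250, Fosb ENSMUSG00000003545, Jun ENSMUSG00000052684, Junb ENSMUSG00000052837, Jund ENSMUSG00000071076, Egr1 ENSMUSG00000038418, Atf3 ENSMUSG00000026628, Ier2 ENSMUSG00000053560, Ier3 ENSMUSG00000003541 and Dusp1 ENSMUSG00000024190. In endothelial cells all 10 were higher in all 4 libraries of the first run of the experiment (run A) than in all 4 libraries of its repeat (run B). Of all 13140 genes tested, 18.5% were called lower in run B, and the share without overlap between the runs was not counted. By the mean level of each run, the gap ran from 293-fold for Fosb to 3.3-fold for Dusp1.

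Immediate early genes are transcribed within minutes of a stimulus by factors already present in the cell, with no need for new protein. Growth factors, shear stress, calcium, heat and mechanical injury switch them on in endothelial cells through MAP kinases acting on serum response factor and CREB. Most encode transcription factors: the Fos and Jun proteins pair through leucine zippers to form AP-1, Atf3 is a stress-induced relative, and Egr1 binds GC-rich sites through zinc fingers. Their transcripts and proteins are short-lived, and products such as the phosphatase Dusp1 help to end the signal. Enzymatic digestion of a tissue is itself a known trigger of these genes, so they are also read as a mark of how cells were handled.

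All mice were males of the genotype ROSA26-eYFP+/+ Cdh5-CreERT2+, in which the endothelial Cdh5 promoter drives a tamoxifen-inducible Cre that turns on a yellow fluorescent reporter. At the age of 6 weeks every group was put on tamoxifen food, which lasted 2 weeks. The diets, normal chow (5.8% fat) or high fat diet (60% fat), began at the age of 8 weeks and were kept up for 12 to 13 weeks. Mesentery or epididymal fat was pooled from 6 mice per library and gave 4 groups (mesentery or adipose, chow or high fat diet), each with 1 library in run A and 1 in run B. The labels give 1 protocol for all libraries: the tissue was collected and digested with Liberase TM at 37 °C, for about 1 hour and then 30 minutes more, in the presence of Actinomycin D, an inhibitor of transcription. Cells were sorted by flow cytometry with a dead-cell dye and the reporter before 10x Genomics libraries were made from their 3′ ends. There was no library of tissue that had not been digested, so what part of the signal was present in the animal was not tested. The labels do not record how closely the handling of the tissue, or the use of the inhibitor, was matched between the runs.

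Of 27944 barcodes, 23177 cells were used. Run A gave 982 to 1897 cells per library and 3461360 to 6714473 UMIs (unique molecular identifiers, each counting 1 captured transcript); run B gave 2917 to 5375 cells and 18829960 to 36779289 UMIs. The mitochondrial share of counts had a median of 4.436% to 5.35% per library in run A and 2.844% to 3.085% in run B, and a 10% limit on it removed 20.07% to 29.95% of barcodes in run A against 5.143% to 8.132% in run B. The matrices came from Cell Ranger 3.0.2 in run A and 5.0.0 in run B, with different gene annotations. Run, depth, mitochondrial share and software version, and any difference in handling, cannot be told apart in this design. Endothelial cells numbered 685 to 1286 per library in run A and 2115 to 3324 in run B, and their 12 endothelial markers summed to 8468 to 9593 CPM (UMIs per 1000000 UMIs of the summed cells) against 9730 to 12003 CPM. In such sums, more cells with a transcript and more transcripts per cell cannot be told apart. Any pair of libraries shared 0 to 10 barcodes, at most 0.312% of the smaller library. The sorted suspensions also held macrophage-like, fibroblast-like, T cell-like, B cell-like and adipocyte-like cells, which were kept apart from the endothelial cells. Clusters with endothelial markers beside erythroid (2071 cells), mural (916) or adipocyte (716 and 658) markers were left out of the endothelial cells too. In run B the mixed adipocyte cells numbered 465 in mesentery chow and 855 in adipose chow, but 11 in mesentery high fat and 10 in adipose high fat.

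The promoters of 8 of the 10 members were at hand in RefSeq's table for GRCm38.p6, and the 5 that hold the letters TGACG on either strand within 250 bases upstream of the annotated start are shown, because CREB is among the factors through which these genes are switched on. The windows of Jun, Jund and Ier3 did not hold these letters, and no link between the letters and the levels below was tested. TGACG is the core of the site bound by CREB and ATF proteins. The capitals mark each match, read 5′ to 3′ on the gene's own strand, so that CGTCA is TGACG on the other strand. The windows are chr12:85473640-85473889 (+ strand) for Fos, chr7:19310046-19310295 (- strand) for Fosb, chr8:84978749-84978998 (- strand) for Junb, chr1:191183334-191183583 (- strand) for Atf3 and chr17:26508473-26508722 (- strand) for Dusp1.
Fos: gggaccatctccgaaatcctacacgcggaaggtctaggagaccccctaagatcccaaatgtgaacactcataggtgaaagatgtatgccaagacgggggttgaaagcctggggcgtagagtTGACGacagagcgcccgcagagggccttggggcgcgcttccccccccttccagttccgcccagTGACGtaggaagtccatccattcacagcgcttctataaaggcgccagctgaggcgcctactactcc
Fosb: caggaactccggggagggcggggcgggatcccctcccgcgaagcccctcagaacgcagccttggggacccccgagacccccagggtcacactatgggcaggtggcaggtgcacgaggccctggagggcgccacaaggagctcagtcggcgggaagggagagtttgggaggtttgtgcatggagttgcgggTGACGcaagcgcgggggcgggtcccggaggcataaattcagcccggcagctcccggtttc
Junb: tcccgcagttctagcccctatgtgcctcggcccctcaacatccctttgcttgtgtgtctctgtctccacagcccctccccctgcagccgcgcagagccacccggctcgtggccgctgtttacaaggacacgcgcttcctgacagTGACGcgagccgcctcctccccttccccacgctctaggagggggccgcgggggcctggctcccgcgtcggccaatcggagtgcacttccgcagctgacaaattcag
Atf3: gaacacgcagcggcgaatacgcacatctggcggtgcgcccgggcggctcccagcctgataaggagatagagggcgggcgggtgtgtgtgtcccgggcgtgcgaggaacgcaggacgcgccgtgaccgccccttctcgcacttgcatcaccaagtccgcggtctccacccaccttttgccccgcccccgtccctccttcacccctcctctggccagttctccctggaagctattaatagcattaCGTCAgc
Dusp1: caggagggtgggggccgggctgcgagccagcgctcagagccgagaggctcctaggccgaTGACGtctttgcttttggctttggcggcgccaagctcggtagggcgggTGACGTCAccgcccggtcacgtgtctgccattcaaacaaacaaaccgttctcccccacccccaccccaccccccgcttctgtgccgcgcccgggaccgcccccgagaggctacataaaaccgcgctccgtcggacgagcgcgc
TGACG occurred in 17.8% of all 32851 promoter windows of this length. The full palindrome TGACGTCA, which contains TGACG on both strands, was in the Dusp1 window and in 1.55% of all windows. The AP-1 site TGANTCA was in none of the 8 member windows and in 6.75% of all, the Egr1 site GCGTGGGCG in none and in 0.536%, and the CArG box of serum response factor in none and in 1.47%. A match only says that these letters are present. The lack of a match only says that these exact patterns are absent from these 250 bases, and other forms of the sites or sites further away were not searched.

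Fos and Fosb bind DNA mainly as partners of Jun proteins, and Fosb showed the widest gap between the runs of the 10 members. Fos stood at 1038 CPM in mesentery chow, 1682 in mesentery high fat, 1486 in adipose chow and 2107 in adipose high fat in run A, and at 18.63, 25.05, 15.76 and 15.3 in the same order in run B. Every run A library was far above every run B library, and the means were 1578 ± 444 and 18.7 ± 4.49 CPM (SD, n = 4). Fosb stood at 740.2, 1432, 1013 and 1283 CPM in run A and at 5.674, 4.107, 3.188 and 2.306 in run B, in the same order of groups. The Fosb levels of run B rest on 238 UMIs in all, and its runs did not overlap either. Fos was lower in run B by 6.47 ± 0.26 on the log2 scale (fitted difference ± SE; edgeR quasi-likelihood test with the group in the model, Benjamini-Hochberg adjusted over all genes, adjusted p = 2.21e-05), and the log2 difference for Fosb was -8.27 ± 0.36 (adjusted p = 2.89e-05).

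The Jun proteins can pair with each other as well as with Fos proteins. Jun stood at 1687, 3205, 1829 and 3592 CPM in run A (mesentery chow, mesentery high fat, adipose chow, adipose high fat) and at 250.8, 268.4, 255.1 and 244.8 in run B. The 4 libraries of run B were nearly level, while those of run A spread with the high fat libraries above the chow libraries. Junb, which is often a weaker activator than Jun, stood at 1699, 1199, 1476 and 1357 in run A and at 82.08, 82.31, 59.23 and 85.24 in run B. Jund, a Jun protein that many resting cells make steadily, ranged from 1381 to 1795 CPM, against 260.3 to 360.5 in run B, a narrower gap. The log2 differences between run B and run A were -3.35 ± 0.21 for Jun (edgeR, adjusted p = 1.03e-04), -4.31 ± 0.20 for Junb (adjusted p = 3.01e-05) and -2.49 ± 0.16 for Jund (adjusted p = 9.61e-05).

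Atf3 and Egr1 are induced by stress and by mitogens. Atf3 stood at 569.9, 942.6, 632.5 and 876.2 CPM in run A and at 4.707, 10.79, 6.053 and 12.84 in run B, again in the order mesentery chow, mesentery high fat, adipose chow, adipose high fat. In these endothelial sums the high fat libraries lay above the chow libraries of Atf3 in both runs. By endothelial class and tissue, high fat was higher in 4 of 8 pairs in run A and 6 of 8 in run B. The Atf3 levels of run B rest on 505 UMIs in all. Atf3 was higher in macrophage-like cells of run B, which numbered 85 (mesentery) and 31 (adipose) on chow against 155 and 621 on high fat diet. Their part in these levels was not tested. Egr1 stood at 608.4, 926, 646.3 and 943.2 in run A and at 37.14, 47.11, 83.4 and 39.82 in run B. The highest Egr1 value of run B, in adipose chow, was below the lowest of run A. The log2 differences were -6.62 ± 0.21 for Atf3 (edgeR, adjusted p = 9.44e-06) and -4.06 ± 0.27 for Egr1 (adjusted p = 1.20e-04).

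Ier2 and Ier3 are small immediate early proteins, the latter a regulator of survival and of MAP kinase and NF-kappa B signalling, and Dusp1 removes phosphate from the stress kinases p38 and JNK. Ier2 stood at 512.5, 670, 648.3 and 785.9 CPM in run A, in the same order of groups, and at 88.98, 105.1, 103.2 and 102.1 in run B, apart in both runs by less than the gap between them. Ier3 stood at 1813, 582.2, 787.3 and 488.4 in run A and at 61.06, 19.49, 18.25 and 19.68 in run B. In both runs mesentery chow was the highest library for Ier3. Dusp1 stood at 462.1, 682.6, 460.3 and 716.3 in run A and at 127.4, 192.4, 220.2 and 163.7 in run B, the narrowest gap of the set and still without overlap. The log2 differences were -2.79 ± 0.12 for Ier2 (edgeR, adjusted p = 2.88e-05), -5.06 ± 0.19 for Ier3 (adjusted p = 1.96e-05) and -1.81 ± 0.18 for Dusp1 (adjusted p = 6.32e-04).

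**Figure D1:**
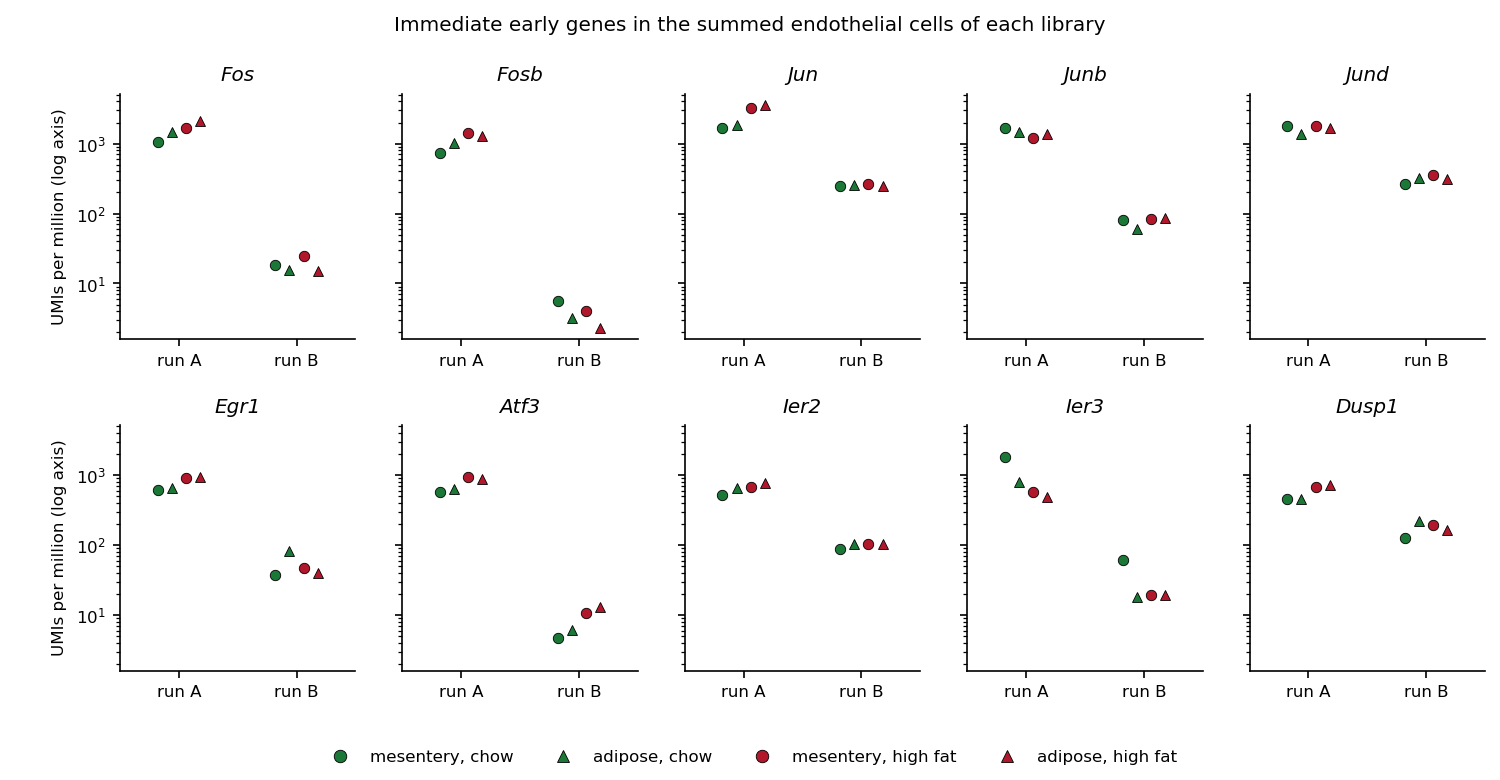
CPM (log axis) of each of the 10 immediate early genes in the summed endothelial cells of each library, run A on the left and run B on the right of each panel, with 1 point per library, circles for mesentery, triangles for adipose, green for chow and red for high fat diet. In each panel the 4 points of run A lie above the 4 points of run B, widest for Fosb (740.2 or more against 5.674 or less) and narrowest for Dusp1 (460.3 or more against 220.2 or less).

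All 10 members were thus called (adjusted p under 0.05) and lower in run B. The runs differed in much else: 39.4% of the 13140 genes tested were called, and 18.5% were called lower in run B. DESeq2 and limma-voom called the same 10 of 10, where they called 37.1% and 39.6% of all genes. The median log2 difference of the members was -4.18, against 0.03 over all genes tested. Counted from the gene most lowered in run B, Fosb was 8 of 13140, Atf3 22, Fos 23, Ier3 39, Junb 67, Egr1 89, Jun 152, Ier2 256, Jund 384 and Dusp1 769. The members together made up 1.04% to 1.38% of endothelial UMIs in run A and 0.0937% to 0.112% in run B. Their proportions changed with the run as well: Fos gave 9.53% to 15.2% of the members' UMIs in run A and 1.46% to 2.25% in run B, while Jund gave 12.1% to 16.2% and 27.8% to 32.3%, and Dusp1 4.24% to 5.2% and 13.6% to 20.4%. Each library is a pool of mice, so these p-values measure the spread between pools around the fitted group and run levels. Each run was done once, with its 4 libraries sharing it, so the p-values do not measure the spread between runs.

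The gap was also present in endothelial cells of like depth or of like mitochondrial share. In cells with 500 to 1000 UMIs the members summed to 9408 to 14206 CPM in the libraries of run A and 623.8 to 1136 in those of run B, and in cells with 2000 to 5000 UMIs to 9871 to 14598 and 982.6 to 1140. In cells with 2% to 4% mitochondrial counts they summed to 10002 to 15687 in run A and 926.5 to 1115 in run B, and with 10% to 20%, above the limit used elsewhere, to 8596 to 12242 and 732.6 to 906.9. Each of these bins held all 4 libraries of both runs, and in none did the runs overlap. With only cells of at most 3% mitochondrial counts kept, the log2 difference was -6.49 for Fos and -1.85 for Dusp1, close to the values over all cells. Markers of other cells in the endothelial sums moved with the run too: adipocyte markers, 7 of 8 called higher in run B, summed to 4.727 to 21.32 CPM in run A and 58.88 to 2480 in run B, and T cell markers to 12.18 to 24.81 and 1.063 to 5.158. Among the endothelial classes, all 12 capillary markers were called higher in run B and 8 of 9 lymphatic markers tested lower. The part of the other cells' RNA in the members' totals was not tested.

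Within single classes of endothelial cell, named from their markers and clustered without the members, the members were lower in run B in each class. The arterial-like cells (113 to 192 per library in run A, 538 to 721 in run B) gave log2 differences from -9.07 for Fosb to -2.31 for Jund, and all 10 were called where 26.8% of the 10372 genes tested were called and 13% called lower. The capillary-like cells (37 to 141 in run A, 735 to 1824 in run B) gave -9.44 for Fosb to -1.92 for Dusp1, all 10 called against a background of 14.3%, 6.67% lower. The venous-like cells gave -7.54 for Atf3 to -1.46 for Dusp1, all 10 called against 25.2%, 13.4% lower, and the lymphatic-like cells -8.10 for Fosb to -2.03 for Ier3, all 10 called against 31.5%, 15% lower. In each of the 4 classes no member's runs overlapped, but the share of all genes without overlap was not counted. Ier3 set the lymphatic-like class apart: its log2 difference there was -2.03 ± 0.21 (edgeR, adjusted p = 2.92e-07), but between -5.62 and -5.95 in the other 3 classes. In lymphatic-like cells Fosb was at 0 UMIs in the mesentery chow library of run B.

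**Figure D2:**
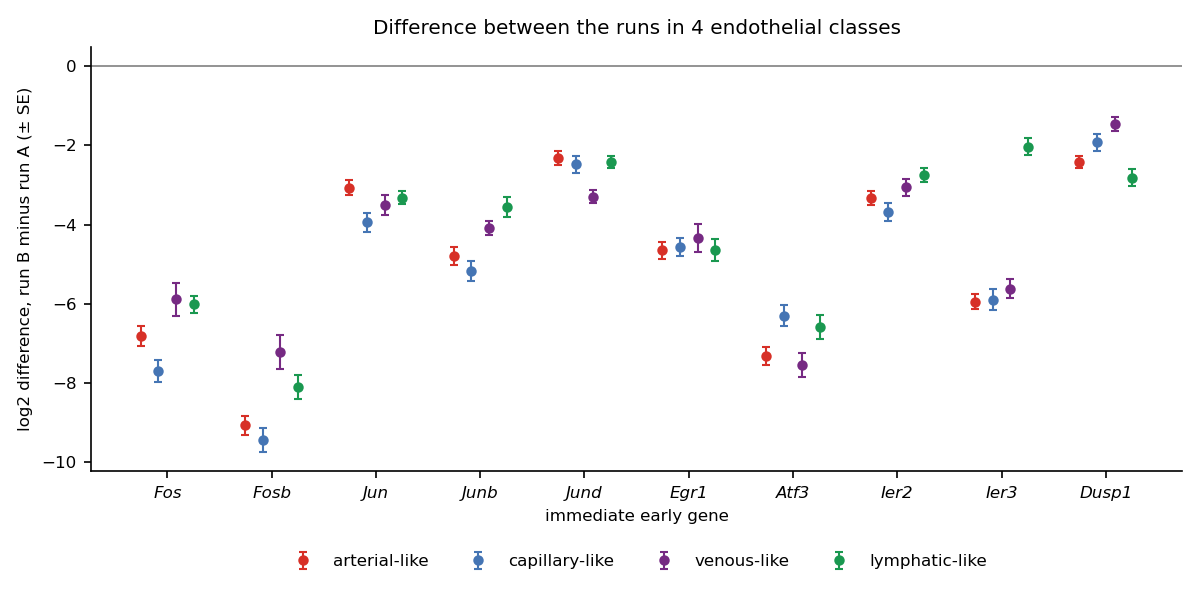
Fitted log2 difference between run B and run A, with its SE as a bar, for each immediate early gene in arterial-like, capillary-like, venous-like and lymphatic-like cells. All points lie below 0, from -9.44 for Fosb in capillary-like cells to -1.46 for Dusp1 in venous-like cells, and the lymphatic-like point for Ier3, at -2.03, stands above the other classes.

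The gap was also seen cell by cell. Each endothelial cell was thinned at random to 1000 UMIs, so that depth was equal, and shallower cells were left out. Of thinned cells, 1.64% to 2.55% in the libraries of run A and 38.8% to 45.1% in those of run B carried no UMI of any member. Cells with 6 or more of the 10 members made up 34.1% to 48.7% in run A and 0% to 0.0922% in run B. A UMI of both Fos and Jun was found in 31.6% to 58% of cells in run A and 0.388% to 0.617% in run B. By gene, Fos was found in 40% to 63.6% of thinned cells in run A and 1.23% to 1.89% in run B, Fosb in 33.4% to 55% and 0.184% to 0.492%, and Atf3 in 32.2% to 44.1% and 0.525% to 0.824%. Jun (63.4% to 82.6% against 19.5% to 21.2%) and Jund (67.5% to 71.4% against 21.4% to 28.5%) were the members most often found in run B. No cell class that should lack these genes was at hand, so the share of cells that free RNA alone would mark was not set.

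**Figure D3:**
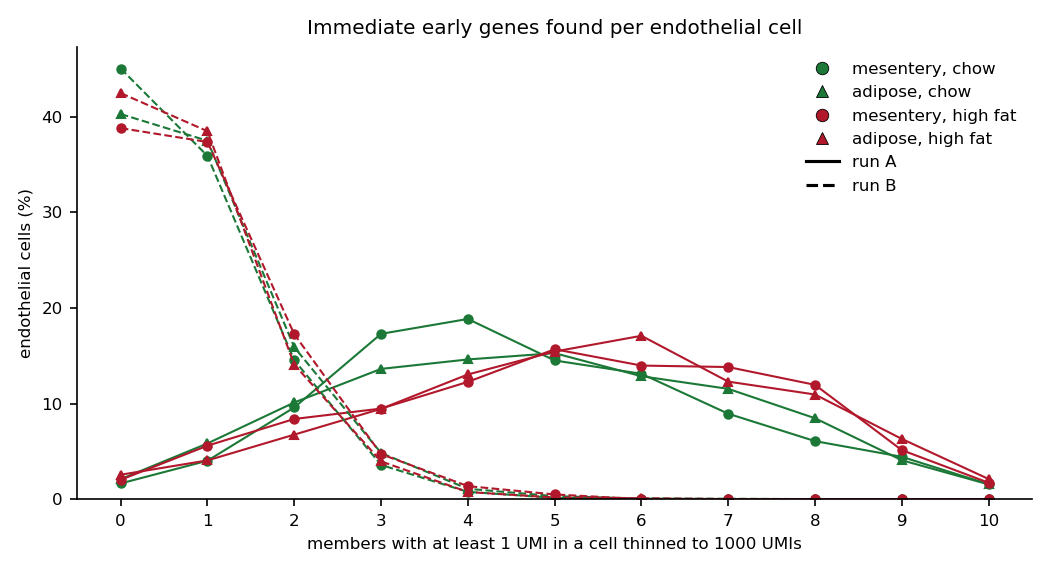
Share of thinned endothelial cells (1000 UMIs each) against the number of immediate early genes with at least 1 UMI in the cell, 1 line per library, solid for run A and dashed for run B. The run B lines peak at 0 members (38.8% to 45.1% of cells), and the run A lines at 4 to 6 members, with the high fat libraries of run A to the right of its chow libraries.

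Within run A the members varied together from cell to cell. Over the thinned endothelial cells of a library, centred on their class, the Pearson correlation of Fos with the mean of the other members was 0.51 to 0.57 in run A, that of Jun 0.47 to 0.54, that of Egr1 0.44 to 0.49 and that of Ier3 0.12 to 0.19. Ier3 was the member least tied to the others. In run B the same values were 0.09 to 0.21 for Fos, 0.07 to 0.14 for Jun and -0.00 to 0.04 for Ier3, at levels where few cells hold a UMI of these genes. Cells of a library share their pool and their chemistry, and these values are descriptions. In all, 933 genes, Jun, Jund and Dusp1 among them, were found in at least 10% of the thinned cells of every library (14237 cells). Of those that are not members, the ones that followed the members most closely (mean correlation over 8 libraries) included Klf2 (0.25), Klf4 (0.19), Nfkbia (0.15), H3f3b (0.14), Sgk1 (0.11), Neat1 (0.11), Actg1 (0.11), Klf6 (0.11) and Eif1 (0.09). Sgk1 (mean 0.21 in run A, 0.01 in run B) and Neat1 (0.23 and -0.01) followed the members in run A and hardly in run B, while Actg1 did so about equally in both (0.09 and 0.12). For Klf2 the means were 0.40 and 0.10. Klf2 and Klf4 are shear-responsive factors of the endothelium, and Nfkbia encodes the inhibitor of NF-kappa B. Klf2 stood at 1321 to 2727 CPM in run A and 379.3 to 632.2 in run B.

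Other genes of the early response, taken from lists by function, were lower in run B too, and most genes upstream of it did not pass the test. These counts stand beside 39.4% of all genes called, 18.5% lower and 20.9% higher in run B. Of 20 other immediate early transcription factors, 19 were called lower in run B in endothelial cells and 0 higher (median log2 difference -2.88), among them Csrnp1 (-3.77 ± 0.17), the basic helix-loop-helix repressor Bhlhe40 (-3.19 ± 0.17) and the zinc finger factor Egr3 (-4.55 ± 0.27). Klf10 was the gene that did not pass. Of 22 genes of feedback and mRNA decay, 16 were lower and 1 higher (median -1.98), among them the ERK phosphatase Dusp5 (-5.39 ± 0.23), Ppp1r15a (-3.79 ± 0.18), which restarts translation after stress, and Gadd45b (-4.92 ± 0.28). Of 13 heat shock genes, 9 were lower (median -1.01), led by Hspa1a (-3.96 ± 0.13). Of 17 kinases and factors that act on serum response factor and CREB, 2 were lower and 1 higher (median 0.22), and of 16 other leucine zipper partners 5 were lower and 3 higher (median -0.08), Atf4 (-2.23 ± 0.14) and Jdp2 (2.18 ± 0.13) moving in opposite directions. All these are edgeR differences between run B and run A with adjusted p under 0.05 for the genes named as called.

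The gap reached cells outside the endothelium. In fibroblast-like cells (44 to 107 per library in run A, 40 to 187 in run B) Fos stood at 1607 to 2736 CPM in run A and 17.79 to 47.8 in run B, and Ier2 at 991.8 to 1687 and 17.71 to 116.8. In B cell-like cells, with 2 libraries of enough cells in each run, Jun stood at 2270 and 3753 in run A and at 57.72 and 127.8 in run B. In T cell-like cells the ranges of Jun and of Atf3 overlapped between the runs, and adipose chow B held only 6 such cells. In macrophage-like cells of run B Atf3 ranged from 82.61 to 371.4 and Fos from 37.77 to 184.9, above the 4.707 to 12.84 and 15.3 to 25.05 of endothelial cells in the same libraries. The macrophage-like cells of run A, 10 to 16 per library, were too few to compare. Differences outside the endothelium were not tested.

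Within libraries, Ier2 and Dusp1 differed between some classes of endothelial cell but not all, and Egr1, Jun or Ier3 in few comparisons. Dusp1 was higher in arterial-like than in venous-like cells by 0.61 ± 0.19 on the log2 scale (edgeR with the library as a block, adjusted p = 0.014) and than in lymphatic-like cells by 0.91 ± 0.19 (adjusted p = 2.12e-04). Ier2 was higher in arterial-like than in venous-like cells by 1.00 ± 0.18 (adjusted p = 6.44e-05) and than in lymphatic-like cells by 1.01 ± 0.18 (adjusted p = 3.46e-05). For Ier2 the same call was made in each run alone: 1.13 ± 0.24 (run A, adjusted p = 0.0019) and 0.88 ± 0.15 (run B, adjusted p = 4.38e-04) over venous-like cells, where 20.4% and 26.6% of genes were called, and 1.27 ± 0.24 (adjusted p = 2.92e-04) and 0.73 ± 0.16 (adjusted p = 0.0020) over lymphatic-like cells, where 33.3% and 39.5% were. Ier2 and Dusp1 were the 2 of 10 members called in each comparison over both runs, where 29.4% (arterial-like against venous-like) and 44% (arterial-like against lymphatic-like) of all 8974 genes tested were called. Between arterial-like and capillary-like cells edgeR called 0 of 10 members, against 23.1% of all genes. An unadjusted p under 0.05 was found for 2 members and for 2867 of all 8974 genes. DESeq2 called 0 as well, against 24.7% of all genes. Dusp1 ranged from 779.9 to 1059 CPM in arterial-like and from 222 to 584.1 in venous-like cells of run A, without overlap, and from 165 to 240.5 and 136.5 to 180 in run B, with overlap. Without adipose chow A the adjusted p of Dusp1 between arterial-like and venous-like cells was 0.052, and within run B alone 0.43.

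Capillary-like cells stood above venous-like cells for Egr1 (log2 difference 0.93 ± 0.21, edgeR, adjusted p = 7.29e-04), Ier2 (0.83 ± 0.18, adjusted p = 5.91e-04), Dusp1 (0.52 ± 0.19, adjusted p = 0.034) and Jun (0.41 ± 0.16, adjusted p = 0.046), and below them for Ier3 (-1.23 ± 0.46, adjusted p = 0.039). That is 5 of 10 members where 32.3% of genes were called. Egr1 and Ier2 passed without any 1 library. Jun, Dusp1 and Ier3 did not pass without mesentery chow A (adjusted p of 0.16, 0.062 and 0.063), without mesentery high fat A (0.13, 0.061 and 0.090), without mesentery chow B (0.064, 0.060 and 0.070) or without adipose chow B (0.075, 0.064 and 0.078). Jun and Dusp1 also lost the call without adipose chow A (0.086 and 0.057), Dusp1 without adipose high fat A (0.053), and Ier3 without mesentery high fat B (0.077) or adipose high fat B (0.064). Against lymphatic-like cells, capillary-like cells were higher for Egr1 (0.73 ± 0.21, adjusted p = 0.0055), Ier2 (0.85 ± 0.18, adjusted p = 3.80e-04) and Dusp1 (0.82 ± 0.19, adjusted p = 8.25e-04), 3 of 10 where 43.8% of genes were called. The largest clusters within a class were not the same in every library, and run A had as few as 37 capillary-like cells in a library.

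Ier3 set lymphatic-like cells apart from arterial-like and capillary-like cells in opposite directions in the runs. In run A it ranged from 698.7 to 1326 CPM in arterial-like, 422.6 to 1801 in capillary-like and 926.4 to 2609 in venous-like cells, but from 83.17 to 275.4 in lymphatic-like cells, below every library of the other classes. In run B lymphatic-like cells held 31.41 to 44.51 and venous-like cells 34.16 to 43.82, both above the 14.32 to 26.63 of arterial-like and the 11.88 to 19.57 of capillary-like cells. The lymphatic-like class was thus the lowest in run A and among the highest in run B. The log2 difference between arterial-like and lymphatic-like cells was 2.85 ± 0.29 in run A alone and -1.08 ± 0.17 in run B alone, and the difference between these was -3.96 ± 0.39 (edgeR class-by-run term, adjusted p = 8.70e-07, where 3.64% of genes were called). Over both runs Ier3 was higher in venous-like than in lymphatic-like cells (1.76 ± 0.54, adjusted p = 0.0097), the 1 of 10 members called where 40% of genes were, but in run B alone the difference was 0.03 ± 0.16 (adjusted p = 0.92). Without mesentery chow A this comparison called 5 members, Fos, Fosb, Atf3 and Dusp1 joining Ier3, where 38.3% of genes were called. In venous-like cells of that library Fos stood at 321.5 and Fosb at 261.3, against 1563 to 3242 and 1121 to 1955 CPM in the other libraries of run A. Such class-by-run terms were called for 0.858% (arterial-like against capillary-like), 0.914% (arterial-like against venous-like), 2.12% (capillary-like against venous-like), 2.52% (capillary-like against lymphatic-like) and 3.15% (venous-like against lymphatic-like) of all genes, and among the members for Ier3, Jund, Junb and Dusp1 in at least 1 comparison.

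**Figure D4:**
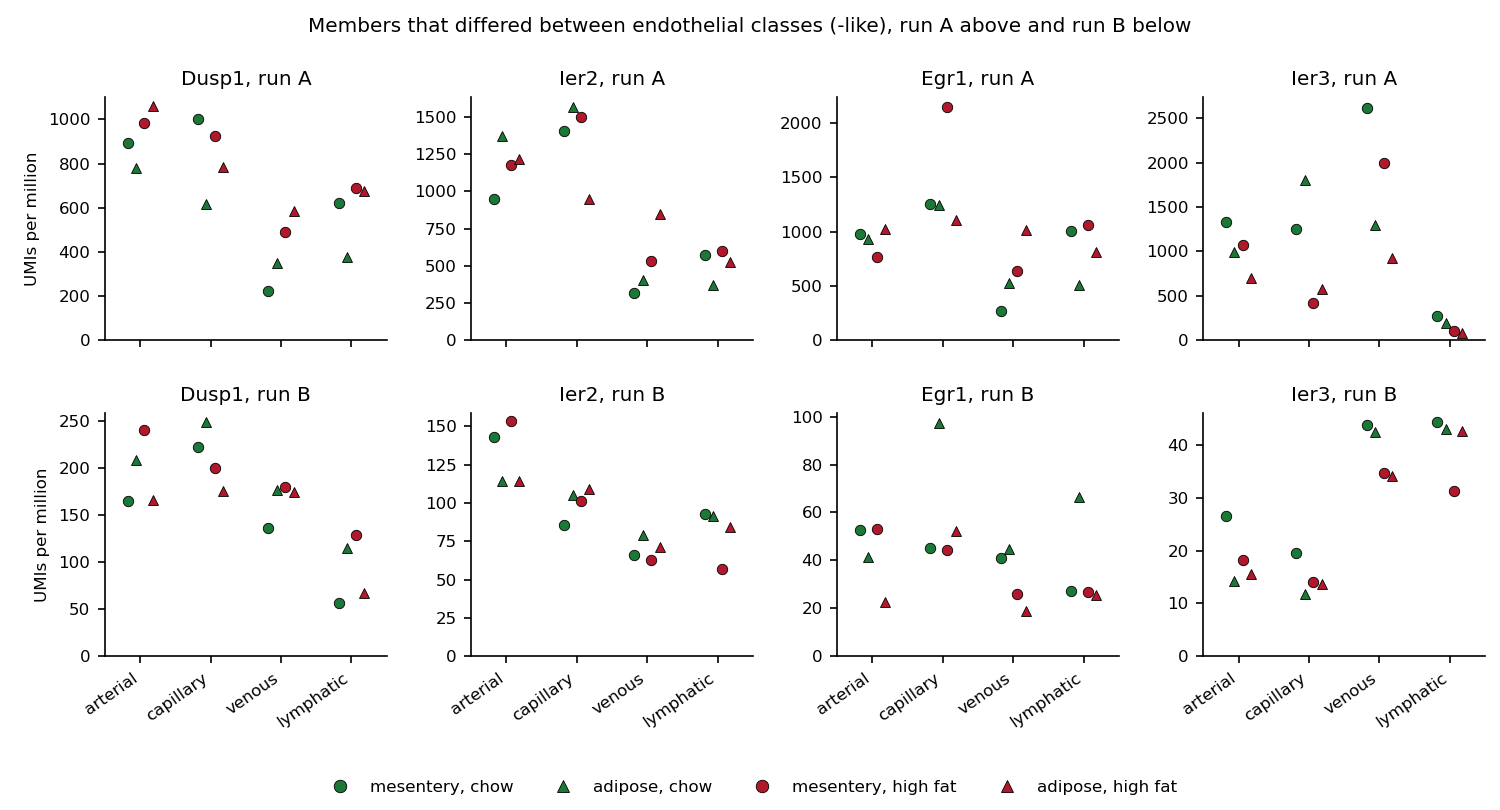
CPM of Dusp1, Ier2, Egr1 and Ier3 in the 4 endothelial classes, run A in the upper row and run B in the lower row, each panel on its own scale from 0, with 1 point per library. Ier2 is higher in arterial-like than in venous-like cells in both rows, and Ier3 is lowest in lymphatic-like cells in run A (83.17 to 275.4) but not in run B (31.41 to 44.51).

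Diet and tissue were compared over groups of 2 libraries, in endothelial and in arterial-like cells. For the effect of diet within each tissue, the effect of tissue within each diet and their interaction, edgeR called 0 of 10 members and 0% of all genes, and 0 members had an unadjusted p under 0.05. DESeq2 called 0 members, where its calls among all genes in endothelial cells came to 0.0685% (diet, mesentery), 0.0152% (diet, adipose), 0.67% (tissue, chow), 0.0685% (tissue, high fat diet) and 0% (interaction), and in arterial-like cells to at most 0.00964%. The limma-voom fit called 0 members and 0% of genes. The spread within a group here contains the gap between the runs: for Fos the diet difference in mesentery was 0.60 with an SE of 2.89 on the log2 scale. With the run letter as a block the SEs shrank and 0 of 10 members were still called in each of the 10 comparisons, where the share of all genes called in endothelial cells was 0.0457% (diet, mesentery), 0.00761% (diet, adipose), 0.571% (tissue, chow) and 0% (tissue on high fat diet and the interaction). In arterial-like cells these shares were 2.67%, 0.26%, 3.72%, 0.116% and 0.00964%. Of the members, 0 to 2 in endothelial and 0 to 3 in arterial-like cells had an unadjusted p under 0.05 in a blocked fit. Among all genes, 296 to 1669 of 13140 in endothelial and 333 to 1228 of 10372 in arterial-like cells had such a p. A member that does not pass in so small a design may still differ.

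Ier3 came nearest. With the run block it was lower on high fat diet in mesentery by 1.67 ± 0.24 on the log2 scale (edgeR, adjusted p = 0.065) and higher in mesentery than in adipose on chow by 1.47 ± 0.23 (adjusted p = 0.054). It passed with the block in DESeq2 (adjusted p = 4.06e-07 and 7.98e-06, where 2.15% and 3.52% of genes were called). Fits without a library of mesentery chow or of mesentery high fat left 1 library in that group, so their calls are not read here. In arterial-like cells the same differences were -0.48 ± 0.23 (adjusted p = 0.46) and 0.68 ± 0.22 (adjusted p = 0.12). Mesentery chow A also held 609 venous-like cells, where Ier3 is high, against 85 in mesentery high fat A. In run B the endothelial cells in no named class held 138.2 CPM of Ier3 in mesentery chow (656 cells) and 9.978 in mesentery high fat (121 cells), while the named classes of run B differed between the diets by -0.551 to 0.197 on the log2 scale. The part of the cell makeup in the endothelial totals was not tested.

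Within run A, the level of Jun in the high fat library lay above that in the chow library of the same class and tissue. It was higher on high fat diet in all 8 pairs of class and tissue, by 0.333 to 1.433 on the log2 scale, and in run B in 4 of 8, between -0.185 and 0.318. Ier3 was higher on high fat diet in 0 of 8 pairs in run A (-1.636 to -0.314) and in 2 of 8 in run B (-0.551 to 0.197). Junb was higher in 1 of 8 and 7 of 8 pairs, Egr1 in 6 of 8 and 1 of 8, Atf3 in 4 of 8 and 6 of 8, and Dusp1 in 7 of 8 and 3 of 8. The 8 pairs of a run come from 4 libraries and are not replicates. Over the 4 libraries of run A the diet difference of Jun in endothelial cells was 0.90 ± 0.17 (edgeR, adjusted p = 0.23), with 0% of genes called. In run B it was 0.09 ± 0.17 (adjusted p = 0.98), with 0.0304% of genes called. The difference between the runs was -0.81 ± 0.24 (adjusted p = 0.51), with 0.00761% of genes called.

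**Figure D5:**
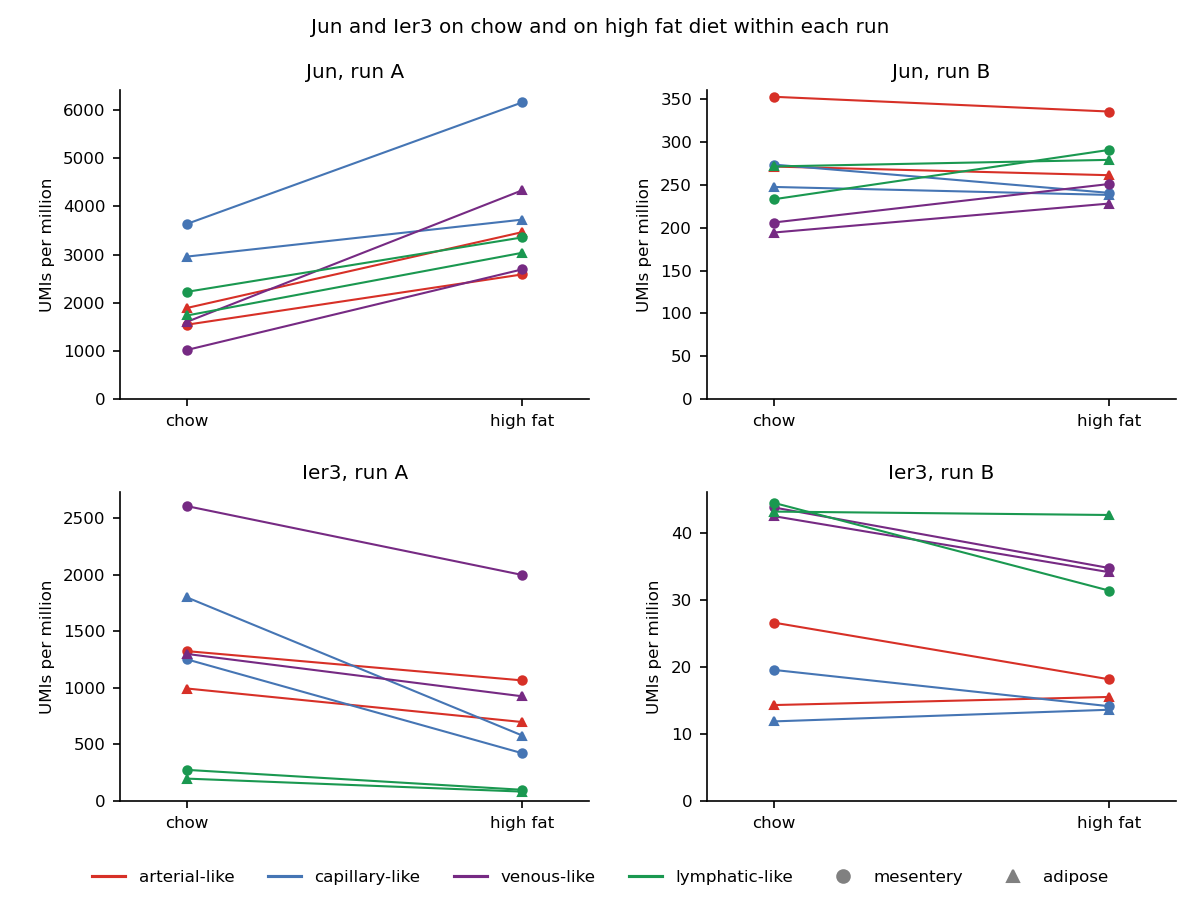
CPM of Jun (upper row) and Ier3 (lower row) on chow and on high fat diet, run A on the left and run B on the right, each panel on its own scale from 0, with a line for each endothelial class in each tissue (circles for mesentery, triangles for adipose). All 8 lines for Jun go up in run A (by 0.333 to 1.433 on the log2 scale) and all 8 for Ier3 go down (-1.636 to -0.314), while the lines of run B go both ways.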

How the data were processed

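Whole-number UMI counts per gene and cell, not normalised, were used as deposited by the authors for 8 libraries; per the file headers the matrices were written by Cell Ranger 3.0.2 (31053 genes, run A) and 5.0.0 (32285 genes, run B), and the submitters' processing notes name mm10 and Seurat 4.3.0. The strand setting of the counting was not given in the sources used here, and Jun, Junb, Jund and Dusp1 overlap a gene on the other strand. Runs were joined on the 30406 gene identifiers in both. Barcodes under 500 UMIs, under 300 genes or over 10% mitochondrial counts were dropped. Doublets were scored by simulation and 819 cells (3.41%) removed at an expected 0.8% per 1000 cells, a threshold set after the scores were seen because the automatic one marked 38. For clustering, genes were scaled within each run and cells were corrected for run, not for library, by the Harmony scheme. Cells were clustered with Leiden (leidenalg 0.10.2, scanpy 1.11.5) without the members, early-response, heat shock, mitochondrial and ribosomal genes, and clusters were named from marker lists.

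Counts were summed per library and class (at least 20 cells) and tested with edgeR 4.0.16 (TMM, low counts filtered, Benjamini-Hochberg adjusted p under 0.05); CPM values are plain shares of summed counts. Diet, tissue and their interaction were fitted as 4 groups over all 8 libraries, the run as a term beside the groups, and the classes with the library as a block. DESeq2 1.42.0, limma-voom 3.58.1, other filters, other clusterings, thinning, each library left out and a run block were the alternatives. The run letters were taken to pair libraries, since the labels describe the experiment as repeated and same-letter libraries deviated together (r of 0.611 to 0.75 over 6 pairs of groups in endothelial cells). Scripts were tested on simulated counts. The text names all 10 members, up to 3 called genes per list, and the 10 genes most correlated with the members, of which 1 is not reported here. Members and lists were chosen with earlier results of these data known. Egr1's promoter and that of Ier2 were not used here.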

Additional observations from a re-analysis of the deposited data

Results flagged for a closer look

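In all, 7 differences between endothelial classes were not the same size in run A and run B by the class-by-run term of edgeR, with adjusted p under 0.05 over all genes. Of these, 3 concern Ier3 and lymphatic-like cells: the term (run B minus run A, log2 scale) was -3.965 for arterial-like, -4.05 for capillary-like and -3.66 for venous-like against lymphatic-like cells, with SEs of 0.388, 0.391 and 0.381 and adjusted p of 8.70e-07, 6.65e-07 and 2.98e-06.

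For Jund the term was 0.952 ± 0.227 between arterial-like and venous-like cells (adjusted p = 0.043) and -0.858 ± 0.228 between venous-like and lymphatic-like cells (adjusted p = 0.038). Jund was higher in arterial-like than in venous-like cells in run B (0.77 ± 0.14) and not called in run A (-0.16 ± 0.16). For Junb the term was -1.683 ± 0.356 between capillary-like and lymphatic-like cells (adjusted p = 0.0085), with 0.59 ± 0.17 in run A and -1.15 ± 0.29 in run B. For Dusp1 it was 1.33 ± 0.27 between venous-like and lymphatic-like cells (adjusted p = 0.0078), with -0.38 ± 0.20 in run A and 1.00 ± 0.16 in run B. The class makeup, the depth and the mitochondrial share differ between the runs as given above, and their part in these terms was not tested.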

How the results depend on the processing

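Members lower in run B kept their direction and their call in all 360 values tried for endothelial and arterial-like cells, 10 of 10 members in each of the settings. Without TMM the median over all genes moved from 0.03 to 0.126 in endothelial cells, and 1978 of 5237 calls were lower in run B in place of 2431 of 5180. For diet and tissue 2790 of 2800 values stayed on their side of the threshold, and 605, of differences that were not called, did not keep their sign. With the replicate block 0 members were called in each comparison. Ier3 was called (1 member) for diet in mesentery and for tissue on chow with the replicate block and DESeq2, where 2.15% and 3.52% of genes were called. The other changes of side came with the block and a library left out (added after the data were seen), where 1 group held 1 library. In arterial-like cells these were Fos, for diet in mesentery without mesentery high fat A, and Junb, for tissue on chow without adipose chow A. The blocked log2 difference of Fos was then 1.305, against a negative value in the unblocked fit. It rests on 1 high fat library of mesentery, from run B, where Fos in arterial-like cells was low (16.47 to 44.6 CPM, 328 UMIs over 4 libraries). The causes were not tested.

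Between classes 835 of 900 values stayed, 28 lost and 34 gained a call, and 3 reversed, all within single runs: Ier3 against lymphatic-like cells was -1.083 in arterial-like and -1.419 in capillary-like cells in run B alone, and Junb 0.588 between capillary-like and lymphatic-like cells in run A alone. Leaving out each library, arterial-like against capillary-like gave 0 to 1 called members, arterial-like against venous-like 1 to 3, arterial-like against lymphatic-like 2 to 3, capillary-like against venous-like 2 to 4, capillary-like against lymphatic-like 3 to 3 and venous-like against lymphatic-like 1 to 5. In the same order, 23.1%, 29.4%, 44%, 32.3%, 43.8% and 40% of all genes were called with no library left out. Counts of members in this paragraph are to be read beside such shares. The share at another setting can differ, and where it is not given here the count of members cannot be judged against it. With no filter on low counts arterial-like against venous-like and against lymphatic-like called 4 each and venous-like against lymphatic-like 2. At clustering resolution 0.5 capillary-like against venous-like called 3. Within single runs arterial-like against capillary-like called 1 (Jun in run A and Fos in run B), and capillary-like against lymphatic-like 5 in run B. For these the share of all genes is not given. Arterial-like against venous-like called 4 in run B, where 26.6% of all genes were called. Arterial-like against lymphatic-like called 4 in each run, where 33.3% (run A) and 39.5% (run B) of all genes were called. In run B few UMIs limit Fosb (238), Atf3 (505) and Fos (1140).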

Other observations

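Genes close to the members were looked up in endothelial cells. Within 10000 bases of a member, by the GENCODE vM21 annotation, lay 13 genes of the files, of which 11 were tested: 5 were called lower and 1 higher in run B, where 18.5% of all genes were called lower and 20.9% higher. The following 3, on the member's strand beyond its 3′ end, were picked with their values in view. Fam71a, 5479 bases beyond Atf3, stood at 16.72 to 67.01 CPM in run A (416 UMIs) and at 0 in run B. Gm26802, 1926 bases beyond Fosb, stood at 25.37 to 77.16 and 0 to 0.3224. Iqcn, 2841 bases beyond Jund, stood at 2.555 to 6.6 and 0 to 0.0462. The runs were counted with different Cell Ranger versions and gene annotations, and the part of these in such values was not tested. D730003I15Rik, on the other strand before Atf3, was higher in run B (log2 difference 1.15, edgeR, adjusted p = 0.0059).

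Outside the members, the replicate block called few early-response genes for diet or tissue. In arterial-like cells Bhlhe40 was lower on high fat diet in mesentery by 1.33 ± 0.24 on the log2 scale (edgeR, adjusted p = 0.0038) and higher in mesentery than in adipose on chow by 1.17 ± 0.24 (adjusted p = 0.0048). Here 2.67% and 3.72% of all genes were called. The chaperone gene Hspa1a was higher in mesentery than in adipose on chow in endothelial cells by 1.77 ± 0.17 (adjusted p = 0.019), and so was Tnfaip3, which damps NF-kappa B signalling, by 2.18 ± 0.24 (adjusted p = 0.027), where 0.571% of genes were called. Tnfaip3 was lower in arterial-like than in venous-like cells (log2 difference -1.33 ± 0.21). On chow, mesentery held 609 (run A) and 800 (run B) venous-like cells, against 257 and 415 in adipose. The part of the cell makeup was not tested.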
